A study of Rattus norvegicus with 30 samples.

Results

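Pan H4 ChIP-seq of the embryonic cortex was examined at 4050 regions that were listed as enriched in embryos of dams on a high-fat diet (HFD), were not listed in control embryos, and lay away from any H3K4me3 peak. These regions are the intervals of the HFD pan H4 list that were 500 bp or wider, overlapped no interval of the control pan H4 list, and had no H3K4me3 interval of either diet within 2500 bp of their edges. They are called HFD-only distal regions here. The HFD pan H4 list held 197410 distinct intervals, of which 94949 had the required width. Of these, 12599 (13.3%) had no control overlap, and 4050 of the 12599 were distal. Among the 10828 distal HFD intervals of the required width, the 4050 regions made up 37.4%. The regions were chosen by their measured pan H4 and H3K4me3 peaks in both diets, so that their presence in HFD and their absence from the control list are a description and not a result.

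The chromatin came from the frontal cortex of Wistar rat embryos at E14.5. Control dams were kept on normal chow and HFD dams on a commercial high-fat chow before and during gestation, and the cortices of a litter were pooled for each biological replicate. The 5 antibodies were pan H4, total H3, H4K16Ac, H3K27me3 and H3K4me3, with 3 libraries for each antibody and diet, 30 libraries in all. The 3 libraries were deposited as 1 peak list for each antibody and diet, so that a difference between the diets could not be set against the spread between litters and no test of it was possible. The third control library of total H3 has a control title but other labels that name HFD. It was taken as control after the title, and its part in the control total H3 list cannot be told apart.

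Histone H4 is a core protein of every nucleosome, and a pan H4 antibody binds it whatever its modifications. Total H3 is the corresponding readout of the partner histone H3. H4K16Ac, acetylation of lysine 16 of H4, loosens the contact between neighbouring nucleosomes and is found at active promoters and enhancers. H3K27me3 is laid down by EZH2, the catalytic subunit of Polycomb repressive complex 2, at silenced developmental genes. H3K4me3 marks the start sites of active and poised genes, so that the regions described here are mostly outside such promoters.

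Most HFD-only distal regions were narrow and weak. Their median width was 625 bp and the widest had 2244 bp. The fold enrichment at the strongest summit, a ratio to the local background, had a median of 3.21 and ran from 1.51 to 15.996. The −log10 q, the authors' measure of the evidence for a peak, had a median of 2.49 and ran from 0.306 to 62.7. A q of at most 0.05 was reached by 3319 regions (82.0%). A single summit was listed in 3710 regions (91.6%), 2 summits in 324 and 3 summits in 16. The fold enrichment and the p of a peak together give the pileup, the number of fragments over the summit. It had a median of 9 fragments and ran from 5 to 71. The local background had a median of 1.80 fragments, the lowest level of this list, and reached 22.5. A pileup of 5 fragments was also the lowest listed at the background level in both pan H4 lists, so that the weakest regions stood at the limit of what the lists could hold.

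**Figure D1:**
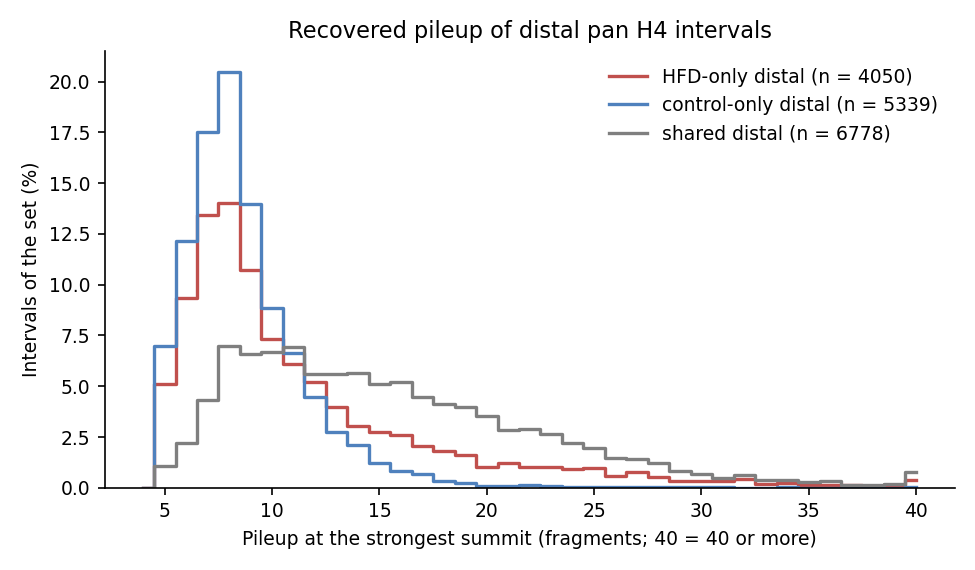
Pileup at the strongest summit (x axis, fragments, with 40 standing for 40 or more) of HFD-only distal, control-only distal and shared distal pan H4 intervals (y axis, percent of each set). The HFD-only regions and the control-only regions had medians of 9 and 8 fragments, and the shared intervals had a median of 14.

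For comparison, the same rule was turned round. In the control list, 12.8% of the intervals of the required width had no HFD overlap. It held 5339 control-only distal regions, 42.4% of the 12595 distal control intervals of the required width, with a median fold enrichment of 3.03, a median −log10 q of 2.04 and a median pileup of 8 fragments. A further 6778 distal HFD intervals overlapped a control interval. These shared distal intervals had a median fold enrichment of 4.29, a median −log10 q of 5.33 and a median pileup of 14 fragments. All 94949 HFD intervals of the required width, most of them near H3K4me3, had a median fold enrichment of 5.62 and a median −log10 q of 10.8. The HFD-only distal regions were thus the weaker of the distal HFD intervals by all 3 medians. The rule used the pan H4 lists from which these values come, though not the values themselves, and no test of them is given.

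HFD-only distal regions were fewer than control-only ones in the lists as deposited, and more numerous among strong peaks. The ratio of HFD-only to control-only regions was 0.759 for all regions, 0.975 at a −log10 q of at least 2, where 2622 stood against 2689, and 1.29 at 3. At 5 or more, 910 HFD-only regions stood against 329 control-only ones, a ratio of 2.77. At 10 or more, 204 stood against 17, a ratio of 12. The HFD to control ratio at this strength was 1.72 for all intervals of the required width and 5.48 for all distal ones. The direction for the HFD-only and control-only regions therefore turned between a −log10 q of 2 and 3. For all distal intervals, shared ones included, the ratio turned the same way. It was 0.860 in the lists as deposited, 1.06 at 2 and 1.31 at 3. The HFD list as a whole also held more strong intervals. At a −log10 q of at least 5 it kept 71929 of its intervals of the required width (75.8%) and the control list kept 49101 (53.6%), a ratio of 1.46, and for all distal intervals, shared ones included, the ratio was 2.15. The background pileup of the HFD list, 1.80 fragments, was above that of the control list, 1.64. The part of this difference in the counts was not tested.

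**Figure D2:**
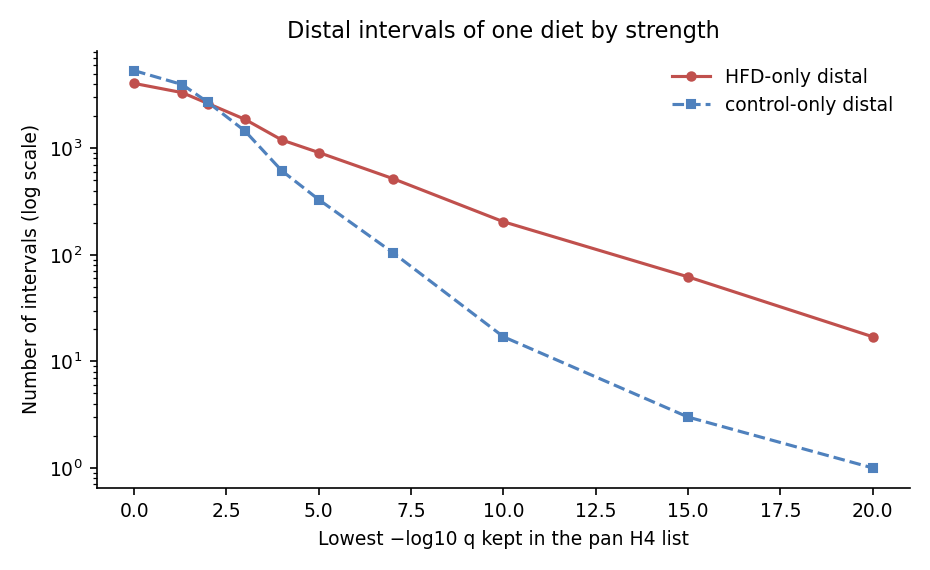
Number of HFD-only and control-only distal pan H4 regions (y axis, log scale) that had a peak of at least the given −log10 q (x axis). The lines crossed between 2 and 3, and at 10 the counts were 204 and 17.

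Whether these regions also carried other histone signals in the same diet was read from the lists of antibodies that the rule did not use. Total H3 was listed at 1867 of the 4050 regions in HFD (46.1%, 95% Wilson interval 44.6% to 47.6%) and at 1168 in control (28.8%, 27.5% to 30.3%). H4K16Ac was listed at 2570 regions in HFD (63.5%, 62.0% to 64.9%) and at 1854 in control (45.8%, 44.2% to 47.3%). The intervals cover counting error only, and in bulk tissue a different share of a cell type and a difference within cells cannot be told apart. Among all 94949 HFD intervals of the required width, total H3 overlapped 88.4% in HFD and 83.5% in control, and H4K16Ac overlapped 94.7% and 91.5%. The HFD-only distal regions were thus less often occupied than the background in both diets, and the gap between the diets was wider in them. It was 17.3 percentage points for total H3 (15.5 to 19.0) and 17.7 for H4K16Ac (15.97 to 19.4), against 4.89 and 3.29 in the background. The size of the gap depended on the peaks counted, and fell to 1.53 and 0.889 points when the total H3 and H4K16Ac peaks had to reach a −log10 q of 5, and to 6.90 and 5.81 when pan H4 intervals of any width were taken. The background peaks were stronger, and among pan H4 peaks of a −log10 q under 2 the total H3 gap was 14.5 points in the HFD-only distal regions and 14.4 in all HFD intervals.

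The same regions can be sorted by the diets in which each antibody was listed. Total H3 was listed in both diets at 787 regions, in HFD alone at 1080 (26.7%, background 9.82%), in control alone at 381 (9.41%, background 4.93%) and in neither at 1802. H4K16Ac was listed in both diets at 1525, in HFD alone at 1045 (25.8%, background 5.61%), in control alone at 329 (8.12%, background 2.31%) and in neither at 1151. Regions with the signal in HFD alone were 2.83 times as many as those with it in control alone for total H3 and 3.18 times as many for H4K16Ac. These ratios were 1.99 and 2.42 in all HFD intervals of the required width. In the HFD-only intervals near H3K4me3 they were 2.92 and 3.70, above those of the distal regions. Both signals appeared together in HFD and were absent in control at 382 regions (9.43%, background 2.41%), and the opposite held at 62 (1.53%, background 0.469%).

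The control-only distal regions showed the opposite direction. Total H3 overlapped 19.0% of them in HFD and 28.1% in control, a difference of -9.16 percentage points (-10.6 to -7.76), where all control intervals of the required width stood at 82.3% and 82.8%. H4K16Ac overlapped 31.5% in HFD and 44.8% in control, a difference of -13.3 points (-14.8 to -11.8), where all control intervals stood at 89% and 90.9%. Total H3 was listed in HFD alone at 502 control-only regions (9.40%, background 7.09%) and in control alone at 991 (18.6%, background 7.56%). H4K16Ac was listed in HFD alone at 529 (9.91%, background 3.49%) and in control alone at 1240 (23.2%, background 5.34%). Both total H3 and H4K16Ac appeared in HFD and not in control at 86 of the 5339 regions (1.61%, background 1.06%), and in control and not in HFD at 314 (5.88%, background 1.41%). Shared distal intervals were occupied more often than both sets, with total H3 at 75.3% in HFD and 71.7% in control, and H4K16Ac at 88.4% and 85.8%. Their HFD minus control differences were 3.69 and 2.61 points, and turned to -1.19 and -2.48 when the 7256 overlapping control intervals were counted in place of the HFD ones. The 8549 HFD-only intervals near H3K4me3 had the same direction as the distal ones, with total H3 at 64.2% and 45.4%, and H4K16Ac at 84.1% and 68.2%. The excess in HFD was therefore found on both sides of the distance limit. The total H3 lists had background pileups of 1.13 fragments in HFD and 1.01 in control, and the part of this in the overlaps was not tested.

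**Figure D3:**
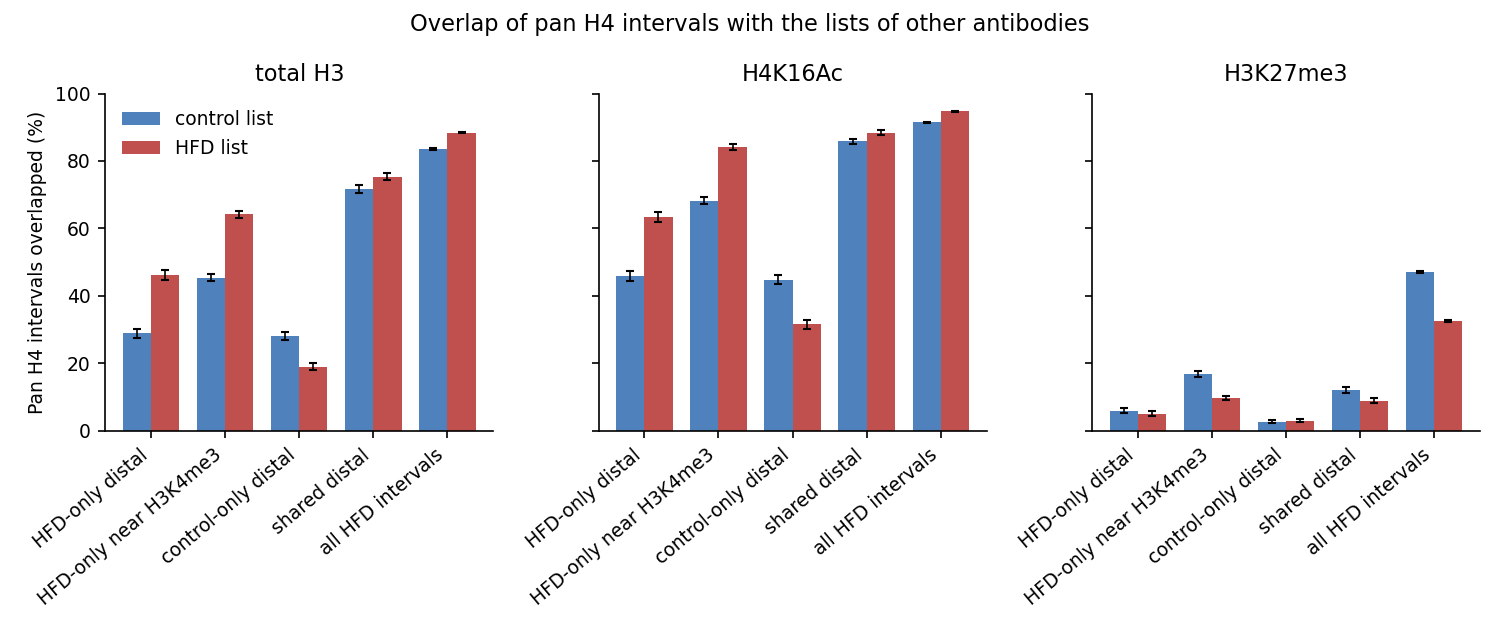
Share of pan H4 intervals (y axis, percent) that overlapped an interval of total H3, H4K16Ac or H3K27me3 in the control list or the HFD list, for 5 sets of intervals of 500 bp or wider, with 95% Wilson intervals as error bars. The HFD bar is the higher one for total H3 and H4K16Ac in HFD-only regions, 46.1% and 63.5%, and the lower one in control-only regions, 19.0% and 31.5%.

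H3K27me3 was listed at few of the distal intervals of any set. At the HFD-only regions it was listed at 205 regions in HFD (5.06%, 4.43% to 5.78%) and at 242 in control (5.98%, 5.29% to 6.75%). The difference was -0.914 percentage points. Both shares are of the same regions, and no interval was computed for their difference. Among all HFD intervals of the required width it was listed at 32.5% in HFD and 47% in control. The control-only distal regions had it at 2.85% and 2.64%, and the shared distal intervals at 8.85% and 12.04%, so the HFD-only regions stood between these sets. Only 26 regions carried it in both diets, 179 in HFD alone (4.42%, background 7.08%) and 216 in control alone (5.33%, background 21.5%). Where it was listed, its median −log10 q was 0.845 in HFD and 0.850 in control, against 1.58 and 1.77 for H4K16Ac, whose lists also hold averages over a region.

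None of the 6 lists of total H3, H4K16Ac and H3K27me3 held anything at 813 regions (20.1%, 18.9% to 21.3%). Such regions made up 35.6% of the control-only set, 2.20% of the shared distal set and 1.69% of all HFD intervals of the required width. Their median −log10 q of 1.68 was below the 2.49 of the full set. At the other end, 633 regions (15.6%, background 76.8%) carried total H3 and H4K16Ac in both diets although pan H4 was listed in HFD alone, with a median −log10 q of 5.40. In the shared distal set this combination held for 54.1%. H4K16Ac without total H3 was found at 943 regions (23.3%, background 4.85%) and total H3 without H4K16Ac at 292 (7.21%, background 1.09%). The control-only set had 25.6% and 8.37%, close to these.

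Where both diets' lists held a signal, its fold enrichment was compared within the region. At the 787 regions with total H3 in both diets, its fold enrichment was higher in HFD at 419 (53.2%, 49.7% to 56.7%), an interval that includes equal shares. At the 1525 regions with H4K16Ac in both diets it was higher in HFD at 817 (53.6%, 51.1% to 56.1%). In the control-only regions these shares were 37.4% (33.3% to 41.7%) and 39.98% (37.2% to 42.8%), and in the shared distal intervals 49.6% and 51.8%. In the HFD-only intervals near H3K4me3 they were 59.2% (57.5% to 60.9%) and 61.3% (59.97% to 62.6%), above those of the distal regions. The median gap between the total H3 and pan H4 summits was 69 bp in HFD and 58 bp in control, against 81 and 82 bp in the control-only regions and 45 and 48 bp in the shared distal intervals.

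Wider regions showed a larger gap between the diets. At the 2983 regions of 500 bp to under 750 bp, total H3 was listed at 43.1% in HFD and 28.0% in control. At the 805 regions of 750 bp to under 1000 bp, it was listed at 51.3% and 33.2%. At the 262 regions of 1000 bp or more, the shares were 64.1% (58.1% to 69.7%) and 25.6% (20.7% to 31.2%), and 112 regions (42.7%) had it in HFD alone against 11 (4.198%) in control alone, where all HFD intervals of that width stood at 6.57% and 1.37%. The HFD-only intervals near H3K4me3 of that width were alike, with 372 (40.6%) in HFD alone and 37 (4.04%) in control alone. H4K16Ac followed the same order, with 59.6% and 45.3% in the narrowest class and 78.6% and 44.3% in the widest. The control shares were not higher in the widest class than in the narrowest one, for either antibody. In the 244 control-only regions of 1000 bp or more, total H3 was listed at 29.5% in HFD and 42.6% in control.

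Against all HFD intervals of like strength, the gap in the regions was near the background value for total H3 in weak peaks and above it in the other classes. Below a −log10 q of 2, total H3 was listed at 27.7% of 1428 regions in HFD and 13.2% in control, and H4K16Ac at 44.2% and 23.9%. Total H3 was in HFD alone at 21.5% of these regions and at 26.1% of the 6344 HFD intervals of that strength, and the gap for H4K16Ac was 20.2 points against 14.3. From 2 to 5, the total H3 gap was 20.6 points against 13.2 in all HFD intervals, and that of H4K16Ac 19.5 against 9.45. The HFD-only intervals near H3K4me3 had gaps of 24.4 and 20.3 points at this strength and of 18.8 and 21.4 below 2. From 2 to 5 the excess over all HFD intervals was thus seen on both sides of the distance limit for both antibodies. Below 2 this held for H4K16Ac only, since the distal total H3 gap was 14.5 points against 14.4 in all HFD intervals. From 5 to 10, total H3 was listed at 69.0% of 706 regions in HFD and 53.0% in control, a gap of 16.01 points against 4.94. At 10 or more, it was listed at 81.4% of 204 regions in HFD and 68.6% in control, a gap of 12.7 points against 0.927, and H4K16Ac at 97.1% and 86.8%. Occupancy thus rose with the strength of the pan H4 peak in both diets. Among all HFD intervals at 10 or more, the control shares were 97.5% and 99.4%, above those of the regions. Those shares left room for only a small gap. The HFD-only intervals near H3K4me3 had total H3 gaps of 14.4 points from 5 to 10 and 6.88 at 10 or more. Their H4K16Ac gaps were 7.78 and 4.06 points.

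Distance from H3K4me3 separated the regions further. The median distance was 8340 bp. Of the regions, 1298 lay within 5000 bp, 939 at 5001 to 10000 bp, 1531 at 10001 to 50000 bp and 270 beyond 50000 bp, while 12 lay on sequences with no H3K4me3 interval. The control share of total H3 was 38.4% in the nearest class, 33.3% in the next, 19.6% at 10001 to 50000 bp and 18.5% beyond. The HFD share was 52.0%, 45.2%, 42.3% and 41.9% in the same order. In both diets total H3 was thus listed most often in the nearest class. H4K16Ac in control was at 60.8%, 51.3%, 32.7% and 27.04%, and in HFD at 70.6%, 65.7%, 57.2% and 56.3%. In the HFD-only regions the control shares thus fell further with distance than the HFD shares. In the control-only regions total H3 in control was at 30.5%, 27.4%, 26.2% and 27.1%, and in HFD at 20.04%, 18.1%, 18.1% and 25.6%. Shares by distance over all HFD intervals were not computed. The ratio of HFD-only to control-only regions was 0.721, 0.509, 0.982 and 2.09 in the same classes, and on chromosomes 1 to 20 it was 0.697, 0.488, 0.898 and 1.52.

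**Figure D4:**
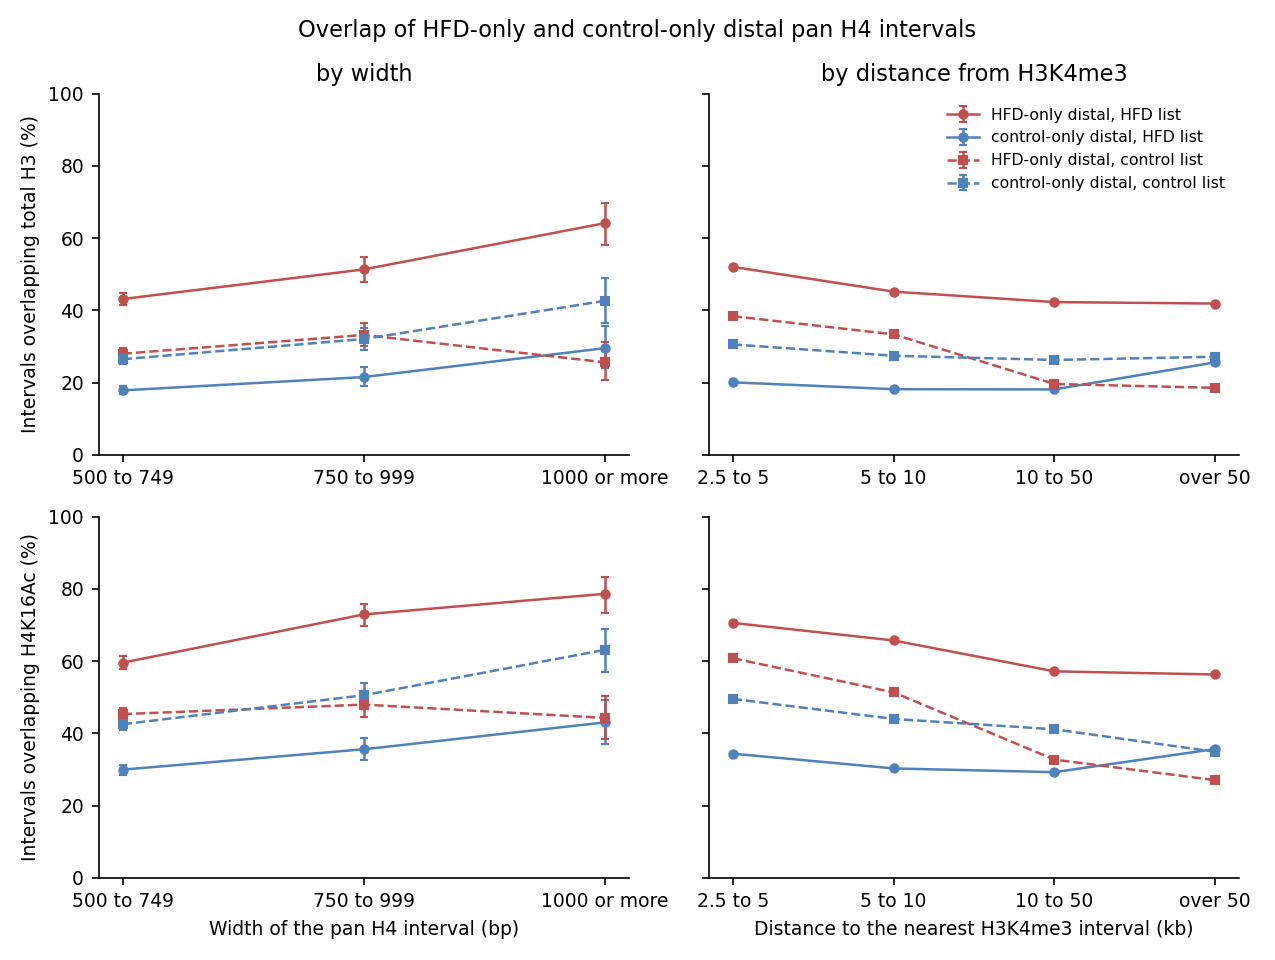
Share of HFD-only and control-only distal pan H4 regions (y axes, percent) that overlapped total H3 (top) and H4K16Ac (bottom) in the HFD or control list, by width class (left, bp, with 95% Wilson intervals) and by distance from the nearest H3K4me3 interval (right, kb). In the HFD-only regions the total H3 shares were 64.1% in HFD and 25.6% in control at 1000 bp or more, and 41.9% and 18.5% beyond 50 kb.

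The regions were spread over the genome but were not distributed like the control-only ones. On chromosomes 1 to 20 there were 3675 HFD-only and 5242 control-only regions, a ratio of 0.701, which ran from 0.528 on chromosome 8 to 0.860 on chromosome 7 and was below 1 on all 20. Chromosome X held 263 HFD-only regions (6.49%) and 81 control-only ones (1.52%), a ratio of 3.25. Of all intervals of the required width, X held 3.27% in HFD and 2.57% in control. Unplaced sequences held 107 (2.64%) and 15 (0.281%), a ratio of 7.13, where they held 1.05% of all intervals of the required width in HFD and 0.744% in control. Near H3K4me3 the same direction was seen, with 337 HFD-only and 80 control-only intervals on X and 119 and 22 on unplaced sequences, against 8085 and 6294 on chromosomes 1 to 20. Of the distal HFD intervals, 49.4% were HFD-only on X (45.2% to 53.7%) and 60.5% on unplaced sequences (53.1% to 67.4%), while the autosomal share was 36.4% and ran from 29.8% on chromosome 10 to 41.1% on chromosome 2.

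On X and the unplaced sequences the lists of pan H4, total H3, H4K16Ac and H3K4me3 were longer in HFD, and that of H3K27me3 was shorter. The HFD list held 1.27 times as many pan H4 intervals on X as the control list, and this ratio was 1.42 for total H3, 1.16 for H4K16Ac, 1.24 for H3K4me3 and 0.814 for H3K27me3. On unplaced sequences the ratios were 1.40, 1.38, 1.31, 1.25 and 0.811 in the same order. On chromosomes 1 to 20 they were 0.994, 1.04, 1.00, 0.945 and 0.853. On chromosomes 1 to 20, total H3 was listed at 46.1% of the HFD-only regions in HFD and 29.6% in control, and H4K16Ac at 64.2% and 46.7%. These gaps of 16.5 and 17.5 points stood against 17.3 and 17.7 over all sequences. The HFD share was the higher one on 20 of 20 autosomes for both antibodies, by 2.91 points (chromosome 20) to 26.3 points (chromosome 18) for total H3 and by 3.59 points (chromosome 10) to 27.9 points (chromosome 15) for H4K16Ac. Over all HFD intervals of the required width on autosomes, the HFD share was also higher, by 4.48 and 3.02 points. The total H3 gaps of chromosomes 20 and 10, 2.91 and 2.99 points, were below this value. In the control-only regions the HFD share was the higher one on 0 of 20 autosomes for both antibodies. Over all control intervals of the required width on autosomes the differences were -0.693 and -2.03 points. On X the 81 control-only regions had total H3 8.64 points more often in HFD, against the autosomal direction. All control intervals of the required width on X had it 6.42 points more often in HFD. For H4K16Ac the difference in these 81 regions was -4.94 points, in the autosomal direction, against 3.36 in all control intervals on X.

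**Figure D5:**
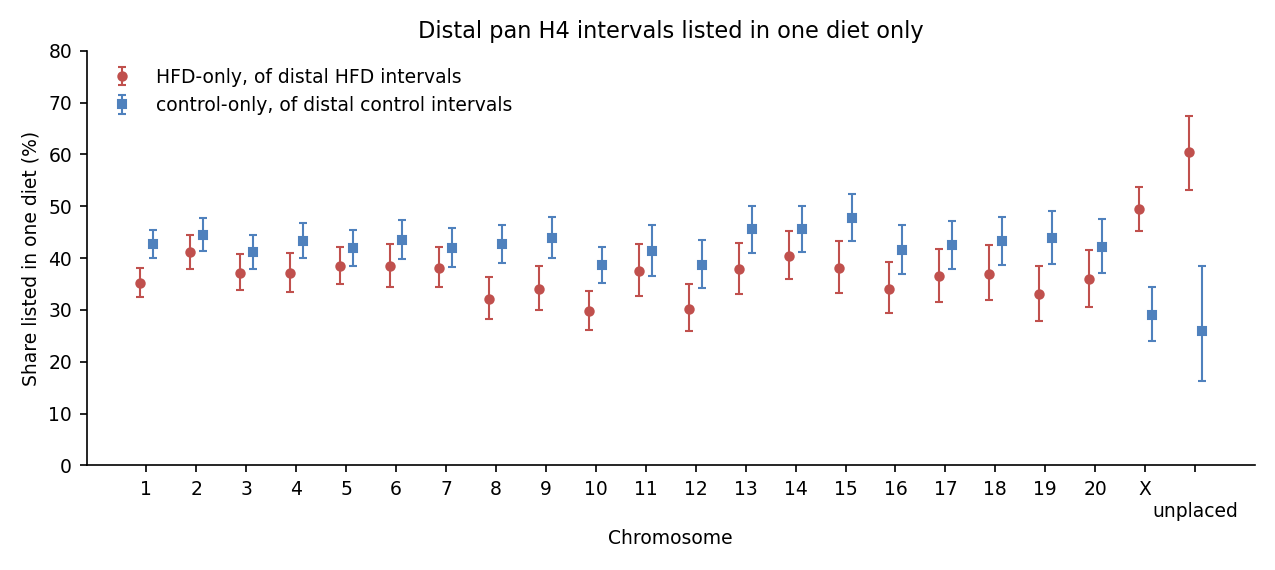
Share of distal pan H4 intervals of 500 bp or wider that were listed in 1 diet alone (y axis, percent, with 95% Wilson intervals), by chromosome, with unplaced sequences last. The control-only share was the higher one on each of the 20 autosomes, and the HFD-only share was the higher one on X, 49.4%, and on unplaced sequences, 60.5%.

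A control pan H4 interval lay within 1000 bp of 480 HFD-only regions (11.9%), and an HFD interval lay as close to 10.8% of the control-only ones. The median distance from the HFD-only regions was 5169 bp. Another interval of the HFD list lay within 5000 bp of 2169 regions (53.6%), and the same-list shares were 57.7% for control-only and 57.1% for shared distal intervals. Another HFD-only distal region lay there in 232 cases (5.73%), against 4.40% for the like count in the control-only set. The order turned at larger distances, with 7.36% against 7.68% within 10000 bp and 18.8% against 27.7% within 50000 bp. The still larger shared distal set, of 6778 intervals, stood at 9.32% and 30.2%. The sets differed in size, with 4050 HFD-only and 5339 control-only regions, and the part of this in these shares was not tested. In windows of 1 Mb, 2016 windows held a region and 97 held 5 or more, with 561 regions between them. The fullest windows were chr19:55000001-56000000, with 10 HFD-only regions, 0 control-only ones and 6 shared intervals, and chr20:4000001-5000000, with 10, 1 and 3. In the first, total H3 was listed at 8 of the 10 in HFD and at 8 in control, and in the second at 9 and 7. In chr7:11000001-12000000, with 9 regions, 2 control-only ones and 10 shared intervals, total H3 was listed at 6 of the 9 in HFD and at 1 in control.

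The strongest region, on build rn6, was chr6:11029013-11029768, of 756 bp. Its pan H4 fold enrichment in HFD was 15.996, with a −log10 q of 62.7 and a pileup of 71 fragments, and the nearest control pan H4 interval lay 4669 bp away. It was also the strongest of the 26 regions with H3K27me3 in both diets. Its total H3 ran the other way, with a fold enrichment of 14.4 in control and none listed in HFD. H4K16Ac was listed in both diets, with fold enrichments of 5.49 in HFD and 4.97 in control, and so was H3K27me3, with 5.41 and 4.54. The intervals of pan H4, control total H3, both H4K16Ac lists and HFD H3K27me3 began at the same base. A strong peak was thus listed here in both diets for some antibodies and in 1 diet for pan H4 and total H3. The peak numbers in the names ran without a gap in all 10 lists, so no numbered peak was missing from the control pan H4 or HFD total H3 list, and why neither held this region was not tested.

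The next strongest regions had total H3 and H4K16Ac in both diets. At chr4:14579859-14580458 the pan H4 fold enrichment was 12.5 with a pileup of 34 fragments, total H3 was at 5.17 in HFD and 5.96 in control, and H4K16Ac at 4.66 and 3.83. At chr19:35918302-35918949 the pan H4 fold enrichment was 11.8 with 32 fragments, and total H3 was at 13.5 in HFD and 7.94 in control. A region on an unplaced scaffold had the same pan H4 values and total H3 at 11.3 in HFD and 4.96 in control. At both of the latter regions total H3 was higher in HFD than in control. At chr11:32879450-32879955 pan H4 was at 8.66, with total H3 at 6.78 in HFD and 3.98 in control. At chr4:122244388-122245176 pan H4 was at 9.95, and total H3 was at 6.58 and 5.81. The total H3 of these 5 regions was higher in HFD at 4 and higher in control at the first. H4K16Ac was higher in control at the scaffold region, 6.04 against 4.88, and at chr4:122244388-122245176, 3.66 against 3.05. It was higher in HFD at chr19:35918302-35918949, 5.24 against 4.53, and at chr11:32879450-32879955, 3.02 against 2.52, as at the first region.

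Regions with total H3 in HFD alone were led by 2 on chromosome X. At chrX:157624075-157624802 the pan H4 fold enrichment was 10.4, total H3 was listed at 8.93 in HFD only, and H4K16Ac at 4.09 in HFD and 3.31 in control. At chrX:61061703-61062209 pan H4 was at 10.1 and total H3 at 2.82 in HFD only, with H4K16Ac at 2.89 in HFD and 3.61 in control. A control pan H4 interval lay 401 bp from this region. At chr20:9264214-9264722 pan H4 was at 9.51 and total H3 at 6.22 in HFD only, with H4K16Ac at 3.75 in HFD and 3.91 in control. H4K16Ac was thus listed in both diets at these 3 regions, with the higher fold enrichment in control at the latter 2, while total H3 and pan H4 were listed in HFD alone.

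The 3 widest regions had fold enrichments from 2.86 to 4.29, where the set had a median of 3.21 and an upper quartile of 3.93. At chr5:114179205-114181448, of 2244 bp with 2 summits, pan H4 reached a fold enrichment of 3.55 and a pileup of 9 fragments, and both total H3 (3.27) and H4K16Ac (2.51) were listed in HFD only. H4K16Ac covered 2127 of its bases. At chrX:110100474-110102631, of 2158 bp, pan H4 was at 4.29, total H3 at 4.23 in HFD only, and H4K16Ac at 2.61 in HFD and 2.31 in control, covering 2080 bases in HFD and 862 in control. At chr14:70817564-70819571, of 2008 bp, pan H4 was at 2.86, H4K16Ac at 2.55 in HFD only, and H3K27me3 at 2.66 in control only. Among the regions with 3 summits the strongest was chrX:149416219-149417666, with pan H4 at 9.29, total H3 at 5.17 in HFD and 7.45 in control, and H4K16Ac covering 1335 bases in HFD and 332 in control. Pan H4 was at 6.04 at chr13:70681544-70683215, where total H3 (4.37) was listed in HFD only, and at 3.69 at chr10:103302551-103303872, where total H3 was at 3.23 in HFD and 2.79 in control. H4K16Ac was listed in both diets at these 3 regions, and total H3 in both diets at all but the second.

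The strongest of the 813 regions found in none of the 6 other lists were chrX:98923311-98923862, with a pan H4 fold enrichment of 7.14 and 19 fragments, and chr13:77700641-77701165 and chr5:5240446-5240965, both at 6.43 with 17 fragments. They lay 72631, 43565 and 24654 bp from the nearest H3K4me3 interval. The other regions with H3K27me3 in both diets that led by strength were chr5:137194874-137195793, with pan H4 at 4.04, and chr3:72282913-72283420, with pan H4 at 3.49 at 2512 bp from H3K4me3.

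Values did not change abruptly at the limits of the rule. The 570 regions of 500 to 524 bp had a median fold enrichment of 3.21 and total H3 at 44.0% in HFD and 31.2% in control. The 789 HFD-only distal intervals of 475 to 499 bp, just too narrow, had the same median and 41.6% and 31.6%. The 336 regions at 2501 to 3000 bp from H3K4me3 had total H3 at 55.4% and 39.6%, and the 440 HFD-only intervals at 2001 to 2500 bp had 55.7% and 39.8%. The strongest region of exactly 500 bp, chr4:7751730-7752229, had a fold enrichment of 8.84 and the next, chr7:91442497-91442996, had 8.57. The strongest intervals of 499 bp, chr7:74223373-74223871 and chr3:121198723-121199221, had 8.21 and 7.86. Just inside the distance limit, at 2501 bp, chr7:28101378-28101910 and chr10:12655160-12655920 had fold enrichments of 4.90 and 1.93. Just outside it, at 2498 and 2497 bp, chr7:143013108-143013622 and chr7:49088911-49089465 had 1.959 and 2.04.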

How the data were processed

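ChIP-seq libraries of 5 antibodies and 2 diets were analysed from 10 peak lists, each for 3 libraries together. The authors mapped the reads on rn6 using Bowtie2, and MACS2 was run by them with options they called recommended. The lowest −log10 q of a list lay between 0.301 and 0.318 in all 10 lists, so that a listed peak need not reach a q of 0.05. The submitters' processing notes also name deepTools. Versions, exact options, the use of an input and the handling of duplicates are not given in the sources used here, nor whether the same litters served every antibody. The deposited values of a peak are its fold enrichment (a ratio over local background), its −log10 p, its −log10 q, and a score equal to the last multiplied by 10. Narrow lists (pan H4, total H3, H3K4me3) hold these values at summits, and broad lists (H4K16Ac, H3K27me3) hold averages over the region.

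Groups were taken from the sample titles. Intervals listed for several summits were counted once, with the values of the strongest. An overlap was at least 1 bp. Pileups were solved from the fold enrichment and the p, and a whole number matched the −log10 p to within 0.1% for 99.93% of HFD and 99.96% of control pan H4 peaks. Shares have 95% Wilson intervals, and differences of paired shares have normal intervals. All cover counting error only, and neighbouring regions of pooled libraries are not independent. No test between the diets was run. The functions were tested on simulated data. Python 3.11.15, numpy, scipy, pandas and matplotlib were used.

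The members, comparisons and lists were chosen with earlier results of these data known. The regions named in the text are the 6 strongest, the 3 widest, the 3 with the most summits (ordered by −log10 q), the 3 strongest in each of 4 classes of overlap, the 3 fullest windows of 1 Mb and those at the limits of the rule. The reference tables used the assembly GRCr8, and genes and sequences at these rn6 regions were not analysed here.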

Additional observations from a re-analysis of the deposited data

How the results depend on the processing

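The HFD share of total H3 and of H4K16Ac in the HFD-only distal regions was above the control share under all 13 alternatives of each, by 1.53 to 38.5 and by 0.889 to 34.4 percentage points. In the control-only regions it was below the control share under all 13, by -14.6 to -1.22 and by -20.1 to -0.169 points, and the interval of the last value (-0.426 to 0.0884), from other lists at a −log10 q of at least 5, included 0. The ratio of HFD-only to control-only regions, 0.759, changed direction under 3 of 10 alternatives. The causes of the changes below were not tested.

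With no minimum width there were 23554 regions, with total H3 at 34.5% in HFD and 27.6% in control and H4K16Ac at 52.7% and 46.9%. The gaps between the diets were 6.90 and 5.81 points there, against 17.3 and 17.7 at 500 bp or wider, while H3K27me3 was at 3.40% in HFD and 3.70% in control. At 1000 bp or more there were 262 regions at a ratio of 1.07, with total H3 at 64.1% and 25.6%, H4K16Ac at 78.6% in HFD, and H3K27me3 at 9.54% and 11.5%. Where H3K4me3 was only barred from overlapping there were 7276 regions, with total H3 at 49.7% and 33.0%, H4K16Ac at 70.1% and 53.7%, and H3K27me3 at 6.47% and 9.13%. Beyond 10000 bp from H3K4me3 there were 1813 regions at a ratio of 1.07, with 42.4% and 19.7%, 57.2% and 32.2%, and 3.64% and 4.08% in the same order, HFD first. With a −log10 q of at least 5 for the region's own pan H4 peak and the list of the other diet whole, there were 910 regions at a ratio of 2.77, with 71.8% and 56.5%, 87.4% and 77.1%, and 7.36% and 8.90%.

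An overlap of at least 50% of the region gave 31.3% and 21.2% for total H3, 53.8% and 38.9% for H4K16Ac, and 2.10% and 3.63% for H3K27me3. An interval of the other list within 1000 bp gave 53.3% and 33.5%, 67.7% and 48.7%, and 6.89% and 7.70%. Other lists at a −log10 q of at least 5 gave 6.47% and 4.94%, 2.25% and 1.36%, and 0% and 0%. At that strength the H3K27me3 lists held 594 peaks in HFD and 16607 in control, so the 0% in HFD had little room to differ. With pan H4 lists of equal length total H3 was at 47.8% in HFD, and H4K16Ac at 65.2% and 47.7%. With no control pan H4 interval within 1000 bp H4K16Ac was at 61.3% and 42.9%. For regions whose own pan H4 peak had a q of at most 0.05, chosen after seeing the data, with the list of the other diet whole, total H3 was at 51.3% and 32.9%, and H4K16Ac at 69.3% and 51.6%. On chromosomes 1 to 20, X and Y, and on chromosomes 1 to 20 alone, which was also chosen after seeing the data, there were 3943 and 3675 regions at ratios of 0.741 and 0.701, and the 6 shares stayed within the intervals given above. The differences between the diets were added after seeing the data as well.

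No paired analysis was possible because the 3 libraries of each antibody and diet were deposited as 1 peak list. For the same reason no value without 1 replicate was computed. The median pileup of 9 fragments limits what 1 list can show.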
